A study of Homo sapiens with 8 samples.

Results

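A set of chromatin modifiers, some of them recurrently mutated in follicular lymphoma, was followed in a B-cell lymphoma line exposed to an inhibitor of BET bromodomains. The set comprised 9 genes, EZH2, EED, SUZ12, KMT2C, KMT2D, CREBBP, EP300, KDM6A and ARID1A, and its probes were found by gene symbol in the platform annotation. Together they had 18 of the 47231 probes on the array. Of these, 13 probes from 8 genes were above background on at least 4 of the 8 arrays and were tested. The exception was KMT2D, whose single probe was above background on 2 arrays.

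The proteins of this set write, erase or move histone marks at enhancers and promoters. EZH2, EED and SUZ12 form the core of Polycomb repressive complex 2 (PRC2), which methylates lysine 27 of histone H3 and silences genes, and germinal centre B cells depend on EZH2 to hold differentiation genes in check. KMT2C and KMT2D methylate lysine 4 of histone H3 at enhancers in a complex with KDM6A, which removes the PRC2 mark, while CREBBP and EP300 acetylate lysine 27 of the same histone. ARID1A is the DNA-binding subunit of a SWI/SNF complex that moves nucleosomes. In follicular lymphoma KMT2D and CREBBP are frequently inactivated and EZH2 frequently carries activating mutations.

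DOHH2 is an established line of human B-cell lymphoma cells. One group of arrays came from cells treated with BAY1238097, which blocks the acetyl-lysine pockets of BET proteins, and the other from cells given the vehicle DMSO. Both groups were sampled at 4, 8, 12 and 24 h, with 1 Illumina bead array for each treatment and time, so 4 arrays per group and 8 in all. No dose is stated in the labels, 1 cell line was used, and separate cultures are not mentioned, so every p-value reflects variation among the time points of a single course, which may be partly technical.

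Of the B cell markers, CD79A, CD79B and MME were above background on all 8 arrays and MS4A1 on 6, whereas the probes of PAX5 and BCL6 were not above background on any. Of 9 markers of T cells, myeloid cells, fibroblasts and red cells, 0 were above background on all 8 arrays and 5 on none. CD14 was above background on 4 arrays, and CD2, LYZ and COL1A1 on 2 each. The summed intensity of the B cell markers was 4855 to 6664 in DMSO and 2939 to 3631 with BAY1238097, that of the other markers 789 to 1026 and 794 to 899. The arrays with BAY1238097 were also dimmer than their DMSO partners, by -0.26, -0.24 and -0.32 in mean log2 intensity at 8, 12 and 24 h and by -0.011 at 4 h. The part of brightness and of the B cell markers in the results was not tested. Every array came from DOHH2 cells, so the marker sums do not measure the share of a cell type in a mixed tissue. In bulk RNA, a lower signal in every cell and its loss in some cells of the line cannot be told apart.

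The first comparison asked whether the transcripts of these modifiers differed between BAY1238097 and DMSO at matched times. Averaged over the 4 times, none of the 13 tested probes passed an adjusted p of 0.05 in limma. An unadjusted p under 0.05 was reached by 3, with no matching share over all probes given. Over all probes kept, 25.5% passed the adjusted threshold, 2364 higher and 2394 lower of 18640 (1163 and 3752 under median scaling). By the brightest probe of each gene the count was 0 of 8 modifiers, against 30% of 10443 named genes. The mean log2 differences of the 13 probes lay between -0.35 and 0.25 with a median of 0.029. Of these probes, 5 were higher and 1 was lower with BAY1238097 at all 4 times, so 6 kept 1 sign, against 43.5% of all probes. In 1 of the 13 the groups did not overlap, against 17.8% of all probes.

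**Figure D1:**
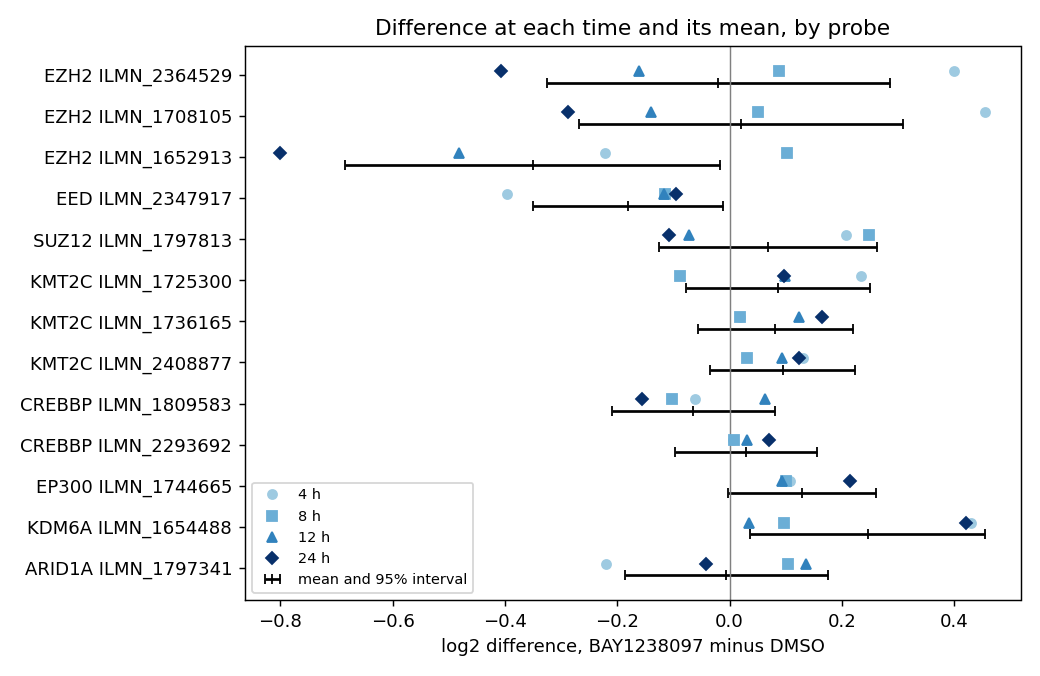
Log2 difference between BAY1238097 and DMSO for the 13 tested probes, with a symbol for each time point and a bar for the mean of the 4 times with its 95% interval. The means lie between -0.35 for an EZH2 probe and 0.25 for KDM6A, and the symbols of EZH2 spread farther apart than those of the other genes.

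To show the regulatory sequence of the PRC2 core and of KDM6A, whose values are given next, the 250 bases before each gene's most upstream start are given from RefSeq (GRCh38.p14), 5′ to 3′ on the gene's strand. All 9 modifiers had an entry. Capitals mark matches on either strand to TTTCCCGC, TTTCGCGC, TTTGCCGC or TTTGGCGC, forms of the E2F motif, or to the E-box CACGTG bound by MYC and related factors. The motif words do not overlap each other here.
EZH2, chr7:148884292-148884541, minus strand: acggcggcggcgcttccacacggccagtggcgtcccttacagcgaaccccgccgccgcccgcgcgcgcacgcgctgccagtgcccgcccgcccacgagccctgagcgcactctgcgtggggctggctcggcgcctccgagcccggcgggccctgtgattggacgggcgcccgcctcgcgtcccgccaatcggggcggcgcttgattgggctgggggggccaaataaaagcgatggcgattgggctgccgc
EED, chr11:86244503-86244752, plus strand: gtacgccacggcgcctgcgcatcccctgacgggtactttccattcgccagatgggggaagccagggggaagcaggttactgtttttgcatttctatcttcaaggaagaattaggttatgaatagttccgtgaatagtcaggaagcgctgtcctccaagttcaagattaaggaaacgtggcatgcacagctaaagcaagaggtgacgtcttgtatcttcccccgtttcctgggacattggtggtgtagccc
SUZ12, chr17:31936757-31937006, plus strand: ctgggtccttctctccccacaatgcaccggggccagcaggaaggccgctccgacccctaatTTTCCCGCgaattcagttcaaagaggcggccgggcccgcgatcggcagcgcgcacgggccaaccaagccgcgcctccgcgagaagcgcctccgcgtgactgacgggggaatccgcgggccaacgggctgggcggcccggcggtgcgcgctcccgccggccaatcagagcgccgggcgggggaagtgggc
KDM6A, chrX:44872938-44873187, plus strand: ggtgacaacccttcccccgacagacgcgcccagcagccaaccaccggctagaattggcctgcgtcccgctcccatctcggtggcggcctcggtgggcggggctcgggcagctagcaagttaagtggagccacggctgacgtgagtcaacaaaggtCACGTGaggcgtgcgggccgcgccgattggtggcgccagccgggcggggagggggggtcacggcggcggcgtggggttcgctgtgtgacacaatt
An E2F word was found in 1 of the 9 windows, that of SUZ12, 189 bases before the start, and in 2.79% of all 35116 promoter windows of this length. The E-box was found in 2 of 9, those of KDM6A at 95 bases and KMT2D at 121 bases before the start, and in 6.34% of all. The EZH2 and EED windows held neither. The member windows had a GC content of 51.2% to 92%, lowest in EED, with a median of 72.8% against 58% over all windows. The motif shares were not adjusted for this difference. A match is a description of the letters only.

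EZH2, the methyltransferase of PRC2, carried the only call of the set, and that call concerned time. In DMSO its brightest probe, ILMN_2364529, read 8.95, 9.17, 9.33 and 9.34 in log2 units on the arrays of 4, 8, 12 and 24 h. With BAY1238097 it read 9.35, 9.26, 9.17 and 8.93. The DMSO series thus ran from low to high and the treated series from high to low, and the groups overlapped. The differences were 0.40, 0.089, -0.16 and -0.41 in time order, which is 1.32-fold higher with BAY1238097 at 4 h and 1.33-fold lower at 24 h. Their mean was -0.020 ± 0.13 (SE, 4 time points), with an adjusted p of 0.931 and a 95% interval from -0.33 to 0.28. The difference changed by -0.32 ± 0.056 per doubling of time (limma, treatment by log2 hours, adjusted p = 0.0369).

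For this change with time 1 of the 13 tested probes passed, against 3.06% of all probes kept (1.63% higher and 1.43% lower, 303 and 267 probes, which median scaling turned to 76 and 357), and by gene 1 of 8, against 3.66% of named genes (1.88% higher and 1.78% lower). An unadjusted p under 0.05 was reached by 3 probes, all of EZH2, with no matching share over all probes given. The second EZH2 probe, ILMN_1708105, read 8.64, 8.74, 8.88 and 8.90 in DMSO and 9.10, 8.79, 8.74 and 8.61 with BAY1238097. Its crossing ran the same way, and its coefficient of -0.29 ± 0.061 missed the threshold (adjusted p = 0.0550). It passed without the filter on dim probes (0.0398), without the 8 h pair (0.0288) and without the 24 h pair (0.0195). The third, ILMN_1652913, read 8.53, 8.77, 9.21 and 9.28 in DMSO and 8.30, 8.87, 8.73 and 8.48 with BAY1238097. It went against the other EZH2 probes at 4 h, where it was lower with treatment by -0.22, and its 24 h difference of -0.80 was 1.74-fold. Its coefficient with time was -0.26 ± 0.11 (adjusted p = 0.230), but -0.54 and past the threshold without the 4 h pair (0.00484) and -0.11 without the 24 h pair (0.660). Its mean difference of -0.35 ± 0.14 had an adjusted p of 0.115. The first and second of these probes are annotated to transcript NM_152998 and the third to NM_004456, both EZH2 messages, and their differences from DMSO were within 0.12 of each other for the first pair at every time but 0.62 apart between the first and the third at 4 h.

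The call of the brightest EZH2 probe did not hold throughout. Leaving out the 4 h pair of arrays raised its adjusted p to 0.0518 and leaving out the 12 h pair to 0.0890. It was also lost with a variance trend (0.0536), after background correction (0.112) and with the time factor left out of the model (0.206). After background correction or without the time factor, 0 of all probes kept passed, so those losses are not particular to EZH2. The call held under median scaling (-0.39, adjusted p = 0.0353). That setting shifted the calls over all probes to 76 higher and 357 lower, so it cannot decide the part of array brightness in this call. The coefficient of treatment by time was negative for all 3 probes under median scaling, after background correction and with each time point left out. The other alternatives leave its value unchanged, so they could not turn its sign.

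**Figure D2:**
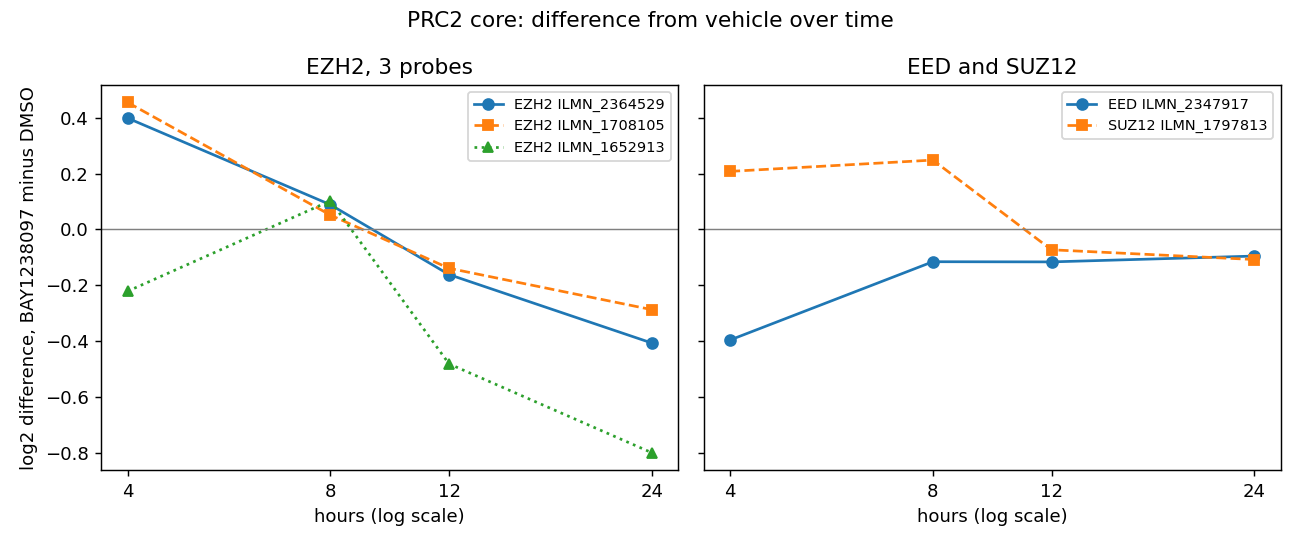
Log2 difference between BAY1238097 and DMSO against hours on a log axis, for the 3 EZH2 probes on the left and for EED and SUZ12 on the right, with 1 array per treatment behind each point. The EZH2 probes ILMN_2364529 and ILMN_1708105 start above 0.39 at 4 h and end below -0.28 at 24 h, while ILMN_1652913 starts at -0.22.

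Within each group, no EZH2 slope passed. In DMSO they were 0.16 ± 0.047, 0.11 ± 0.045 and 0.32 ± 0.10 per doubling of time for the probes in the order above (adjusted p = 0.0869, 0.180 and 0.0945). With BAY1238097 they were -0.16 ± 0.047, -0.18 ± 0.045 and 0.054 ± 0.10 (adjusted p = 0.0788, 0.0540 and 0.762), and the first and second turned to 0.018 and 0.0071 under median scaling. Among alternatives, ILMN_1652913 passed in DMSO without the 24 h pair (adjusted p = 0.0496) and ILMN_1708105 with BAY1238097 without a filter (0.0441). Over all modifiers 0 of 13 probes passed the adjusted threshold for the DMSO trend in limma, against 4.46% of all probes. For the BAY1238097 trend 0 of 13 passed it, against 7.14%. An unadjusted p under 0.05 was reached by 4 probes for either trend, with no matching share over all probes given.

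EED, the PRC2 subunit that reads the trimethyl mark and stimulates EZH2, was lower with BAY1238097 at each time. Its probe read 8.63, 8.54, 8.27 and 8.16 in DMSO and 8.23, 8.42, 8.15 and 8.07 with treatment, so both series ended lower than they began and the groups overlapped. The differences were -0.40, -0.12, -0.12 and -0.095, with the widest gap at 4 h. Their mean of -0.18 ± 0.071 did not pass (adjusted p = 0.111, 95% interval -0.35 to -0.011), but under median scaling it was -0.31 and did (adjusted p = 0.0108). The slope in DMSO was -0.19 ± 0.060 per doubling of time (adjusted p = 0.0929), and -0.084 ± 0.060 with BAY1238097. Under median scaling both slopes turned positive, to 0.052 and 0.096.

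SUZ12, the scaffold that holds PRC2 together, was brighter with treatment early and dimmer late. It read 11.71, 11.72, 11.94 and 11.89 in DMSO and 11.91, 11.97, 11.87 and 11.78 with BAY1238097. The differences of 0.21, 0.25, -0.073 and -0.11 gave a mean of 0.069 ± 0.081 (adjusted p = 0.590), which was -0.071 under median scaling. Its coefficient of treatment by time, -0.14 ± 0.066, had an adjusted p of 0.287, and that of EED was 0.11 ± 0.062 (0.385). These were the lowest and the highest such coefficients outside EZH2.

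KDM6A, the demethylase that removes the PRC2 mark and is encoded on the X chromosome, was the modifier whose groups did not overlap. Its probe read 7.37, 7.67, 7.76 and 7.60 in DMSO and 7.79, 7.77, 7.79 and 8.02 with BAY1238097. Every treated array was above every DMSO array, but barely: the lowest treated value was 7.766 (8 h) and the highest DMSO value 7.760 (12 h). The differences were 0.43, 0.098, 0.034 and 0.42, 1.35-fold at 4 h and 1.34-fold at 24 h. The mean of 0.25 ± 0.087 did not pass (adjusted p = 0.0861, 95% interval 0.036 to 0.46), and it was 0.12 under median scaling (adjusted p = 0.390).

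**Figure D3:**
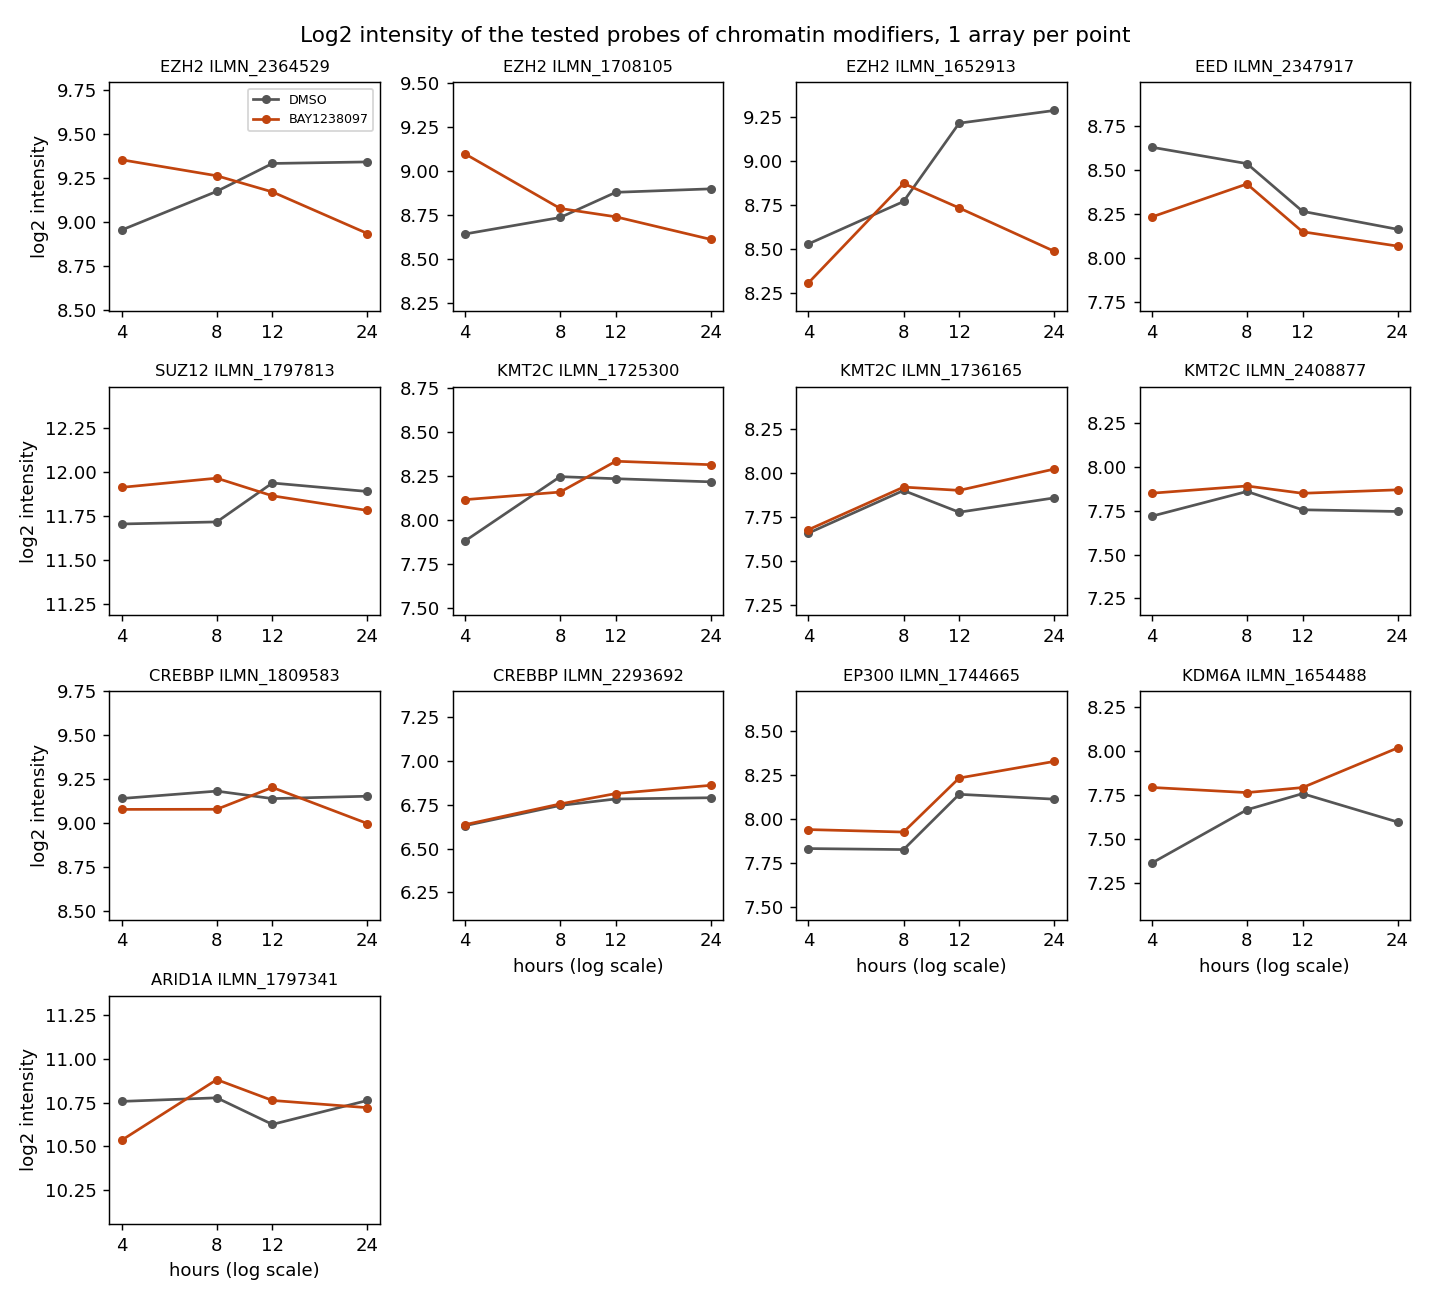
Log2 intensity of each tested probe against hours on a log axis, in DMSO (grey) and with BAY1238097 (orange), with 1 array per point and the same height of 1.3 log2 units in every panel. The lines of the EZH2 probes cross between 4 and 12 h, those of KDM6A stay apart, and those of CREBBP lie close together.

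The enhancer methyltransferases were measured unevenly. KMT2C had 6 probes, of which 3 were tested, and all 3 had small positive means. The brightest, ILMN_1725300, read 7.88, 8.25, 8.24 and 8.22 in DMSO and 8.12, 8.16, 8.34 and 8.32 with BAY1238097. Treatment was higher at 4, 12 and 24 h and lower at 8 h, and the groups overlapped. Its mean difference was 0.086 ± 0.068 (adjusted p = 0.413). The other tested KMT2C probes gave 0.082 ± 0.057 (ILMN_1736165) and 0.095 ± 0.054 (ILMN_2408877), both higher with treatment at all 4 times (adjusted p = 0.351 and 0.251), and all 3 means turned negative under median scaling, to -0.055, -0.035 and -0.028. The upper ends of the 95% intervals were 0.25, 0.22 and 0.22. Parts of KMT2C have near-identical copies elsewhere in the genome, so signal from those copies cannot be told apart.

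Of the untested KMT2C probes, ILMN_1698472 was above background on 3 arrays, ILMN_2295183 on 2 and ILMN_1702018 on none. The first of these was above it at 24 h in DMSO and at 12 and 24 h with BAY1238097, the second at 12 and 24 h with treatment. KMT2D, the most frequently mutated methyltransferase of the set, read 6.83, 6.67, 6.73 and 6.66 in DMSO and 6.85, 6.64, 6.57 and 6.54 with BAY1238097. It was above background on the 4 h array of each group and not on the later ones, so its level beyond 4 h is only bounded. Fitted without a filter on dim probes its difference was -0.076 ± 0.043 (adjusted p = 0.438).

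The acetyltransferases had no difference past the threshold. CREBBP, by ILMN_1809583, read 9.14, 9.18, 9.14 and 9.15 in DMSO and 9.08, 9.08, 9.20 and 8.998 with BAY1238097. The DMSO values lay within 0.05 of each other, and the treated values were lower at 3 times and higher at 12 h. The mean difference was -0.064 ± 0.061 (adjusted p = 0.493, 95% interval -0.21 to 0.081), and it was -0.24 under median scaling (adjusted p = 0.0578). A dimmer CREBBP probe, ILMN_2293692, above background at 12 and 24 h in both groups, had a mean of 0.029 ± 0.053 (adjusted p = 0.738). EP300, the paralogue of CREBBP, read 7.83, 7.83, 8.14 and 8.11 in DMSO and 7.94, 7.93, 8.23 and 8.33 with BAY1238097. In both groups it was brighter at 12 and 24 h than at 4 and 8 h, with slopes of 0.13 ± 0.060 and 0.17 ± 0.060 per doubling of time (adjusted p = 0.209 and 0.126), or 0.35 and 0.33 under median scaling (0.0821 and 0.109). Its treatment difference of 0.13 ± 0.055 was positive at all 4 times, did not pass (adjusted p = 0.138), and was -0.0037 under median scaling.

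ARID1A read 10.76, 10.78, 10.63 and 10.76 in DMSO and 10.54, 10.88, 10.76 and 10.72 with BAY1238097. Its differences of -0.22, 0.10, 0.14 and -0.041 changed sign over time, and their mean was -0.0056 ± 0.075 (adjusted p = 0.969, 95% interval -0.19 to 0.18). Under median scaling that mean was -0.23, outside this interval (adjusted p = 0.0530). A second ARID1A probe was not above background on any array.

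The partners of these proteins were described next, each gene by its brightest kept probe, and against a background in which 15.4% of named genes passed as higher and 14.5% as lower. Of 9 measured PRC2 partners, 1 rose and 3 fell, with a median change of 0.016, and 0.0100 over all named genes. PHF19, a Polycomb-like protein that guides PRC2 to chromatin, fell by 0.66 ± 0.12 (adjusted p = 0.0107), with differences of -0.47, -0.42, -0.62 and -1.11 in time order. EPOP fell by 0.42 ± 0.068 (adjusted p = 0.00779) and AEBP2, a cofactor that stimulates PRC2, fell by 0.38 ± 0.075 (0.0144). JARID2, which recruits PRC2, rose by 0.37 ± 0.090 (0.0260), a call lost under median scaling. EZH1, the paralogue of EZH2, had a change of 0.016 ± 0.058 (adjusted p = 0.878), and the histone chaperone RBBP4 one of -0.28 ± 0.12 (0.123). Without the 12 h arrays none of the 4 calls held.

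Among 20 measured subunits of Polycomb repressive complex 1, which ubiquitinates histone H2A, 8 fell and 1 rose, with a median of -0.086. CBX6, a reader of the PRC2 mark, fell by 0.85 ± 0.080 (adjusted p = 0.00170). BCOR, a corepressor that binds BCL6, fell by 0.75 ± 0.11 (0.00560), and CBX2 fell by 0.60 ± 0.15 (0.0261). RYBP, which stimulates the ligase, rose by 0.81 ± 0.058 (0.00107), with differences of 0.92, 0.78, 0.76 and 0.77. In this list 4 calls, those of BCOR, RYBP, KDM2B (-0.54) and L3MBTL2 (-0.52), held under every alternative run. L3MBTL2 was named after its value was seen. The falls numbered 5 without the 8 h arrays, 6 without the 12 h or the 24 h arrays and 4 with the time factor left out. Over all 18640 probes kept the lower calls dropped as well, from 2394 to 904, 882 and 1789 without the 8, 12 and 24 h arrays. With the time factor left out they numbered 1181.

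The other writers and erasers went both ways. Of 17 subunits of KMT2 and SET1 complexes, 2 rose and 2 fell, with a median of -0.046. ASH2L, a core subunit shared by these complexes, rose by 0.42 ± 0.091 (adjusted p = 0.0187) and PSIP1 by 0.38 ± 0.11 (0.0401), while BOD1 fell by 0.43 ± 0.085 (0.0138) and HCFC1 by 0.29 ± 0.061 (0.0174). Leaving out the 8 h pair of arrays ended all 4 calls, and under median scaling the list had 0 genes higher and 5 lower. That scaling also moved the calls over all probes from 2364 higher and 2394 lower to 1163 and 3752. Of 10 other acetyltransferases, 4 rose and 1 fell, with a median of 0.17. NCOA1 rose by 0.63 ± 0.13 (0.0173), KAT6A by 0.45 ± 0.080 (0.00991), KAT2B, also called PCAF, by 0.40 ± 0.10 (0.0306) and KAT8, which acetylates histone H4, by 0.38 ± 0.067 (0.0100). KAT2A, also called GCN5, fell by 0.64 ± 0.18 (0.0399), and none of these 5 calls held without the 12 h arrays. Under median scaling 1 gene of the list was higher and 2 were lower, and the calls of KAT6A (adjusted p = 0.131), KAT2B (0.0674) and KAT8 (0.0508) were lost.

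**Figure D4:**
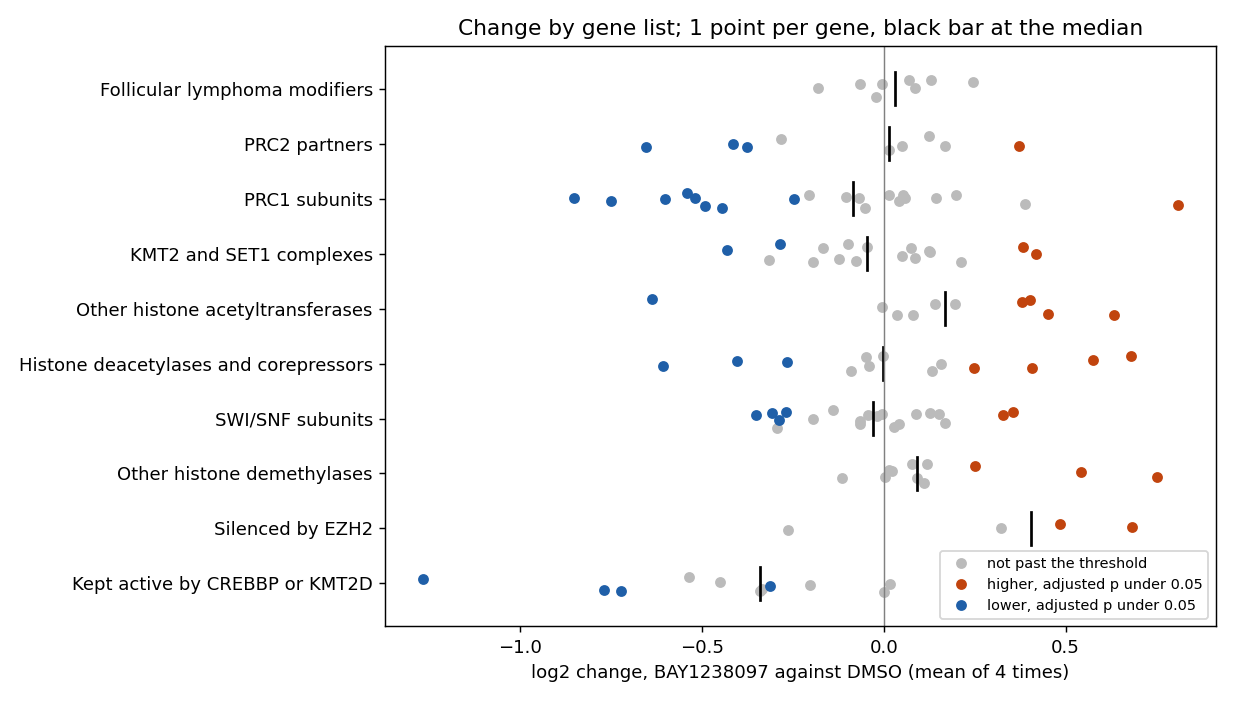
Mean log2 change with BAY1238097 for each tested gene of the lists, with genes past an adjusted p of 0.05 in orange (higher) or blue (lower) and a black bar at each list's median. The 8 follicular lymphoma modifiers lie between -0.18 and 0.25 with 0 past the threshold, and 8 of 20 PRC1 subunits are lower.

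Of 13 deacetylases and corepressors, 4 rose and 3 fell, with a median of -0.0021. SIRT1 rose by 0.68 ± 0.10 (adjusted p = 0.00642), HDAC3, the deacetylase that BCL6 recruits through its corepressors, by 0.57 ± 0.086 (0.00614), HDAC6 by 0.41 ± 0.059 (0.00544) and SIRT7 by 0.25 ± 0.057 (0.0227). HDAC9 fell by 0.61 ± 0.15 (0.0259), TBL1XR1, a subunit of the NCOR complexes, by 0.40 ± 0.10 (0.0282) and HDAC2 by 0.27 ± 0.062 (0.0225). The calls of SIRT1 and HDAC6 held under every alternative run, and the 3 falls were lost without the 8 h or the 12 h arrays. Of 11 other demethylases, 3 rose and 0 fell, with a median of 0.091. KDM3A, which demethylates lysine 9 of histone H3, rose by 0.75 ± 0.056 (0.00108), JMJD1C by 0.54 ± 0.060 (0.00254) and KDM5B, which removes lysine 4 methylation, by 0.25 ± 0.064 (0.0315). All 3 were lost with the time factor left out, and that of KDM5B without the 8, 12 or 24 h arrays.

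Of 20 SWI/SNF subunits other than ARID1A, 2 rose and 4 fell, with a median of -0.031. SMARCD1 rose by 0.36 ± 0.081 (adjusted p = 0.0212) and DPF2 by 0.33 ± 0.061 (0.0116). ARID2 fell by 0.35 ± 0.10 (0.0483), BCL7A, which is itself mutated in B-cell lymphomas, by 0.31 ± 0.065 (0.0168), PHF10 by 0.29 ± 0.073 (0.0300) and SMARCA2, an ATPase of the complex, by 0.27 ± 0.055 (0.0153). None of the 6 calls held under every alternative. All 4 falls were lost without the 12 h arrays, and both rises without the 8 h arrays. Under median scaling 0 were higher and 6 lower, while over all probes 1163 were higher and 3752 lower.

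Known targets of these enzymes were listed as well. Of 4 measured genes that EZH2 silences in germinal centre B cells, 2 rose and 0 fell, with a median of 0.40. CDKN1B, an inhibitor of cyclin-dependent kinases, rose by 0.68 ± 0.056 (adjusted p = 0.00125), with differences of 0.66, 0.60, 0.74 and 0.73, a call that held under every alternative run. IRF4, a transcription factor of plasma cell differentiation, rose by 0.49 ± 0.11 (0.0211), and leaving out the 12 h pair of arrays (adjusted p = 0.0801) or median scaling ended its call. CDKN1A had a change of 0.32 ± 0.15 (0.157), and PRDM1, the plasma cell regulator, one of -0.26 ± 0.25 (0.497).

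Of 11 genes that CREBBP or KMT2D keep active in B-cell lymphoma, most of them of MHC class II presentation, 0 rose and 4 fell, with a median of -0.34. By time, that median ran from 0.031 at 4 h through -0.30 and -0.48 to -0.64 at 24 h. The class II transactivator CIITA was above background on 4 DMSO arrays but on 1 array with BAY1238097, so its fall is a bound. With treated values raised to the lowest signal above background on their array it was at least 1.59-fold lower (adjusted p = 0.00282 on the values as measured). HLA-DMB fell by 1.27 ± 0.18 (0.00505), HLA-DOB by 0.72 ± 0.20 (0.0413) and the receptor TNFRSF14 by 0.31 ± 0.087 (0.0410). Without the 8, 12 or 24 h arrays 2 fell, and without the 4 h arrays 9. Over all 18640 probes kept 904, 882 and 1789 were lower without the 8, 12 and 24 h arrays. Without the 4 h arrays 3138 were lower, against 2394 with all arrays. In 5 of the 11 the difference from DMSO declined with time, against 1.78% of named genes. These were HLA-DOB (-0.51 per doubling of time, adjusted p = 0.0310), HLA-DMA (-0.48, 0.0261), HLA-DPA1 (-0.47, 0.0269), CD74 (-0.34, 0.0333) and HLA-DRA (-0.30, 0.0420), and the last 4 of these were named after their values were seen. All 5 calls were lost after background correction (adjusted p from 0.0626 to 0.156) and with the time factor left out (0.176 to 0.557). In either setting 0 of all probes kept passed this test, so those losses are not particular to these genes. HLA-DRA was also lost under median scaling (0.0604). CD74 and HLA-DRA were also lost without the 12 h or the 24 h pair. No sign turned under median scaling, background correction or left-out time points, the only alternatives that change these coefficients. Of the B cell markers, CD79A had differences of 0.077, -0.40, -0.74 and -0.84 in time order and CD79B ran the other way, with -1.24, -0.82, -0.38 and -0.080. All 4 B cell markers tested were lower on average, with a median of -0.49, and CD79B and MS4A1 passed the threshold. CD79A (-0.48, adjusted p = 0.0596 in limma) and MME (-0.50, 0.0568) did not pass. The part of these markers in the result was not tested. MS4A1 was above background on 4 DMSO arrays but on 2 with BAY1238097, so its fall is a bound (1.17-fold by the rule used for CIITA).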

How the data were processed

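RNA of DOHH2 cells was labelled as biotin cRNA and hybridised to 8 Illumina bead arrays, per the labels' protocols. The deposited intensity table holds linear, non-normalized intensities of 47231 probes, and the deposited value table holds log2 values. Quantile normalization of the log2 intensities returned those values within 0.00126, so they carry no background correction. The scanner software is not stated in these sources, and detection p-values were not used here. The 10 other columns of the intensity table hold 0 values.

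Tests ran on the deposited log2 values in limma 3.58.1 (R 4.3.3), and figures were drawn with matplotlib 3.10.9 (Python 3.11.15). Background was set by 437 olfactory receptor probes. A probe was kept when the share of these at least as bright was under 0.05 on at least 4 arrays, which kept 18640 probes for 10443 named genes, since 30113 probes had 1 gene symbol, 8 several and 17110 none. The treatment effect compared BAY1238097 and DMSO in a model with a factor for time. Its change with time was treatment by centred log2 hours, and trends were slopes per group in 1 model over all arrays. Adjusted p-values are Benjamini-Hochberg over all probes kept, errors are moderated standard errors, and the threshold was 0.05. Lists use each gene's brightest kept probe. No value is compared between probes as a level, and the number of arrays limits the precision.

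Each time point held 1 array of each treatment, and the deviations of the paired arrays correlated with r = 0.60, 0.40, 0.67 and 0.48 at 4, 8, 12 and 24 h. The highest correlation with an array of another time was 0.18 at 4 and 8 h and 0.52 at 12 and 24 h, so at 24 h another time was closer than the pair. Alternatives covered scaling, background correction, filters, the variance model, the time factor and leaving out each time point. On simulated data with 18640 probes, the treatment effect recovered 53% of changes of 0.5 and 88% of 1 on the log2 scale, and treatment by time 11% and 76%. The simulation changed a far smaller share of probes than the 25.5% that passed for treatment here. It drew independent noise without time effects, with the spread of the treatment fit in every comparison. These rates therefore need not hold for the data. The modifiers, lists and tests were chosen with earlier results of these data known. Named genes were every modifier, up to 4 list genes with the largest changes past the threshold, or all where 5 or fewer passed in a direction. Non-passing genes of the PRC2 partner and EZH2 target lists were added after their values were seen.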

Additional observations from a re-analysis of the deposited data

Results flagged for a closer look

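The difference of the EZH2 probe ILMN_2364529 between BAY1238097 and DMSO changed with time, by -0.32 on the log2 scale per doubling of hours, by a test of that change itself (adjusted p = 0.0369).

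In 3 of the 26 sets of 4 arrays, 1 array stood far from the others, by the gap to its nearest neighbour divided by the range of the 4 (Dixon ratio, 95% critical value), which chance gives in about 1 in 20 sets. The KMT2C probe ILMN_1725300 was lowest in DMSO at 4 h (ratio 0.919). KDM6A was highest with BAY1238097 at 24 h (0.885). ARID1A was lowest in DMSO at 12 h (0.865). The arrays of a group are different times, so such a gap can also be a change with time.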

How the results depend on the processing

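For the treatment effect, 1 of 137 values of the 13 tested probes under the alternatives passed, EED under median scaling. Directions turned under median scaling for EZH2 ILMN_1708105 (-0.13), SUZ12 (-0.071), the KMT2C probes (-0.055, -0.035 and -0.028) and EP300 (-0.0037). Leaving out time points in turn gave -0.13 to 0.12 for EZH2 ILMN_1708105, -0.16 to 0.11 for ILMN_2364529 and -0.053 to 0.066 for ARID1A. Trends turned under median scaling for EED in DMSO (0.052) and with BAY1238097 (0.096) and for EZH2 ILMN_2364529 (0.018) and ILMN_1708105 (0.0071) with BAY1238097, and that of ILMN_1652913 ran from -0.24 to 0.30 with time points left out. Of 236 further coefficients of the other modifiers, 0 passed by limma under any alternative and 25 turned in sign. Filters, 1 probe per gene, the variance trend and the time factor leave a coefficient unchanged, so a sign could turn only under the other alternatives.

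Counts over all probes moved more. For the treatment effect, median scaling gave 1163 higher and 3752 lower, 1 probe per gene 1620 higher and 1541 lower of 10443 tested (15.5% and 14.8%), and leaving out time points 777 to 3234 higher and 882 to 3138 lower, with the fewest without the 12 h pair (777 and 882) and nearly as few without the 8 h pair (871 and 904). With no replicate block (the time factor left out of the paired design) 991 and 1181 passed. For treatment by time 303 were higher and 267 lower. Median scaling gave 76 higher and 357 lower, 1 probe per gene 190 and 177 of 10443 (1.82% and 1.69%), background correction 0 and 0, no replicate block 0 and 0, and leaving out time points 55 to 898 and 78 to 949. For the DMSO trend (374 higher and 457 lower) median scaling gave 0 and 0, background correction 622 and 719, no filter 125 and 157, a variance trend 774 and 895, and leaving out time points 0 to 1620 and 0 to 1707. For the BAY1238097 trend (769 and 562) median scaling gave 0 and 0, and leaving out time points 0 to 1123 and 1 to 1204. The cause was not tested. Dim probes such as KMT2D cannot show a change here.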

Other observations

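Beyond the modifiers themselves, a few genes of the other lists had differences from DMSO that changed with time, named here after their values were seen. Of 20 PRC1 subunits 2 rose and 1 declined with time, and 1 rose of 13 deacetylases and corepressors and of 20 SWI/SNF subunits. The other partner lists had 0. Of 4 EZH2 targets 1 rose, PRDM1. Over all named genes 1.88% rose and 1.78% declined, and the lists were not tested against these shares. BMI1, a core subunit of Polycomb repressive complex 1, was lower with BAY1238097 at 4 h (-0.74) and higher at 8, 12 and 24 h (0.11, 0.24 and 0.62), a change of 0.51 per doubling of time (adjusted p = 0.0290). PHC3, of the same complex, ran from -0.20 to 0.60 (0.30 per doubling, adjusted p = 0.0387), whereas its chromobox partner CBX2 ran from -0.12 to -1.06 (-0.37, adjusted p = 0.0300). The SWI/SNF subunit SS18 ran from -0.38 to 0.55 (0.35, adjusted p = 0.0411) and HDAC9 from -1.11 to -0.15 (0.37, adjusted p = 0.0292). PRDM1 ran from -1.12 to 0.61 (0.67, adjusted p = 0.0249), with slopes per doubling of time of -0.42 in DMSO and 0.25 with BAY1238097. All 6 calls were lost after background correction and with the time factor left out of the model, where 0 of all probes kept passed. All but that of PRDM1 were also lost without the 12 h pair, those of PHC3, SS18 and HDAC9 under median scaling, those of PHC3 and SS18 without the 4 h pair, and that of PHC3 without the 24 h pair.

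The named genes whose pattern over the 8 arrays was closest to EZH2 ILMN_2364529, by root mean square difference of log2 values after each probe was centred on its own mean, were MFAP1 (0.052) and CENPQ (0.055). EZH2 itself had a standard deviation of 0.16 on that scale. EZH2 was chosen for this after its values were seen, since no modifier passed for the treatment effect.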
